A study of Mus musculus with 3 samples.

Results

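In embryonic mouse liver, 467 protein-coding genes were accessible to DNase I at a downstream annotated start while their most upstream annotated start was closed in all 3 samples. They were chosen from 9504 genes of the GENCODE M21 annotation whose transcript starts lie over 5 kb apart (21951 protein-coding genes in all), and they make up 4.91% of those 9504. A start was called open in a sample where the shorter of its deposited peak lists had a peak within 500 bp. A gene was taken where each of the 3 samples had such a peak at a start over 5 kb downstream of the most upstream start and none within 500 bp of that upstream start. The peaks themselves chose these genes, so their peak signals are given below as a description. A single downstream start was open in all 3 samples in 466 of the 467 genes, and the strongest such start of each gene is called its open start here. The exception was Plekha6, in which the start 17.111 kb downstream had a peak in replicates 2 and 3 and the starts near 81.9 kb in replicates 1 and 2.

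All samples were livers of mouse embryos at 13.5 days, from mice of a mixed C57BL/6N and 129 strain that are homozygous for a globin mutation described as a deletion of HS2 and HS3. The labels number 3 biological replicates of this 1 group under a single donor entry, so the spread between them may be partly technical. No other genotype was analysed here, and no comparison between conditions was possible. In DNase-seq the enzyme DNase I cuts accessible DNA, and the sequenced cut sites mark promoters and enhancers. The deposited signal of a peak is the highest cut density in it, scaled by the authors to read depth.

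Many mammalian genes have more than 1 promoter. The choice between them sets the first exon and the 5′ untranslated region of the RNA, and where the first coding exons differ it also sets the amino end of the protein. Alternative first exons are well known in red blood cell precursors, the main cell population of the liver at this age, and they give red cell forms of enzymes and membrane skeleton proteins. A peak at a start shows that the DNA there is accessible. It does not show that transcription begins there.

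The sequences in front of 4 of the open starts are printed because these genes serve the red cell and the footprints there can be read base by base. They are the plus or minus strand of the RefSeq GRCm38.p6 genome, the build of the files, from 5′ to 3′. Capitals mark bases that lie in a deposited footprint, a stretch protected from cutting within accessible DNA, in at least 2 of the 3 samples. The stretches end at the base before the start, except for Add2, where they end 31 bases before it. They are chrX:7967911-7968030 (minus strand) for Gata1, chr8:23034979-23035098 (plus) for Ank1, chr6:86077934-86078053 (plus) for Add2 and chr1:120265285-120265404 (minus) for Steap3, and none overlaps an annotated untranslated region.
Gata1: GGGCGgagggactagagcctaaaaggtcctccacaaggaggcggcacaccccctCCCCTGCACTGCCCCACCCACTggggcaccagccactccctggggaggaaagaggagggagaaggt
Ank1: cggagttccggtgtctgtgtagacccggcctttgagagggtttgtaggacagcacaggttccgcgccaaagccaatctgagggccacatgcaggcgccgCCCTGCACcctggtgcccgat
Add2: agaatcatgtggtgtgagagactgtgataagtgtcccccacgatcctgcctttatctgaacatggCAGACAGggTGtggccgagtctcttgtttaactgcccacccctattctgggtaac
Steap3: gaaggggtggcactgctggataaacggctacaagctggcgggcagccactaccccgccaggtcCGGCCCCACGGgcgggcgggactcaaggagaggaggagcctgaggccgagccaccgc
Of the 120 bases shown for each gene, 27 were footprinted in at least 2 samples in Gata1, 8 in Ank1, 9 in Add2 and 11 in Steap3. The longer protected run of Gata1 holds the letters CACCC, which Krüppel-like factors such as the red cell regulator Klf1 are known to bind. CACCC was found on either strand within 250 bases before and 50 bases from the start at 68.5% of the open starts. The share was 57.4% of all 93513 annotated protein-coding gene starts, so the match is a common one. Among the strongest starts of the 11151 protein-coding genes open at any start it was 62.3%.

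Further sequences show the rarer motif matches among the open starts, with the match in capitals and 9 bases on either side. The palindrome known for the factor NRF1 occurred in the same 300-base window at 10 open starts (2.15%), at 0 of the 466 closed upstream starts and at 1.03% of all starts.
Dnmt1, chr9:20952932-20952959, minus strand: ctccgttgcGCGCATGCGCactcccttc
Tmem219, chr7:126898326-126898353, minus strand: gtggtcaccGCGCATGCGCgtctgaatg
Pdcd4, chr19:53903182-53903209, plus strand: aagcccagcGCGCATGCGCcgacggcgc
Egf, chr3:129725147-129725174, minus strand: cccactcgaGCGCATGCGCtgagggcta
A footprint overlapped the match in all 3 samples at 9 of the 10 starts. Their signal ranged from 2.16 to 10.2 with a median of 6.31, and 8 of the 10 carried the principal isoform of their gene, the transcript that the annotation marks as its main one. Among all 11151 protein-coding genes open at any start, 2.38% of the strongest starts held this motif, close to the share at the alternative starts.

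The core of the pattern known for the insulator protein CTCF was found at 11 open starts (2.36%), at 1 closed upstream start and at 0.304% of all starts, against 0.789% of the strongest starts of all open genes.
Sema3b, chr9:107602212-107602241, plus strand: aagaagcagCCACGAGGGGGCagtagagac
Adcy5, chr16:35270583-35270612, minus strand: ctgtcttgaCCACAAGGTGGCgaggtgctg
Nav1, chr1:135461338-135461367, plus strand: ccattttggCCACTAGGGGGCagggctaca
Gata1, chrX:7967980-7968009, minus strand: aaaggtcctCCACAAGGAGGCggcacaccc
At 9 of the 11 a footprint overlapped at least 1 base of the match in all 3 samples, whereas at Aqr this was so in 1. At Gata1 footprints reached the match in 2 samples but over different bases, so the match is in lower case in the longer Gata1 stretch above. Only Gata1 and Aqr of the 11 carried the principal isoform at the open start, and 8 of the 11 had no protein-coding transcript there. These starts were weakly open, with a median signal of 1.77 (range 1.01 to 6.22). A match is a description of the letters and does not show that the factor was bound. The genes printed for these 2 motifs were chosen after their values were seen.

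The labelled tissue was checked against markers of the cell types it holds. All 7 erythroid markers, among them Gata1, Klf1, Epor and both adult β-globin genes, had an open start in all 3 samples, with summed signals of 40.2, 62.4 and 41.3 in replicates 1, 2 and 3. None of the 6 hepatoblast markers was open in all 3, Alb and Afp had no peak in any sample, and the summed signals were 0.731, 3.77 and 0. The 4 macrophage and 4 endothelial markers also had none open in all 3, with summed signals of at most 1.45 and 0.778. Of the 4 megakaryocyte markers Itga2b and Vwf were open and Pf4 and Gp9 were not, and of the 4 mesenchymal markers only Col1a1 was open in all 3. Gata1 and Vwf belong to the 467 genes, so the rule itself fixed them as open. Of all 21938 protein-coding genes compared, 50.8% were open at any start in all 3 samples. The part of other cell types in the open starts was not tested. In bulk tissue, fewer cells with an open start and a start less open in each cell cannot be told apart. The shorter lists held 28209, 57314 and 41319 peaks in replicates 1, 2 and 3, so a start could be called closed more easily in replicate 1.

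The word alternative refers to position. The principal isoform began at the open start in 286 of the 466 genes (61.4%), and 32 genes (6.87%) also had a start open in all 3 samples within 5 kb of the closed one. In the same 9504 genes 468 (4.92%) were open both at the most upstream start and at a start over 5 kb downstream, 4802 (50.5%) were open at the upstream start and at none over 5 kb downstream, 2334 (24.6%) at neither, and 1433 (15.1%) differed between samples. These classes leave out starts within 5 kb of the most upstream one, and 157 of the 2334 genes (6.73%) had such a start open in all 3 samples.

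Of the red cell genes with starts over 5 kb apart, the open-downstream pattern was found in 1 of 14 transcription factors, 3 of 16 membrane and effector genes and 1 of 10 heme and iron genes, beside 4.91% of all such genes. Gata1, the master regulator of red cell differentiation on chromosome X, has an upstream start known as the first exon used in testis and a start 10.161 kb downstream known as the first exon used in blood cells. The latter was open, with signals of 1.71, 2.94 and 1.82 in replicates 1, 2 and 3 (mean 2.16 ± 0.679, SD, n = 3), and neither peak list had a peak at the former in any sample. A second peak in all 3 samples, 6.5 kb downstream of the upstream start and without an annotated start of its own, was stronger than the one at the open start in each sample, at 2.55, 4.62 and 2.48. Gata1 was no longer counted when only the upper 50% of peaks or only the starts of the annotation's basic transcript set were used.

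Ank1 codes for ankyrin 1, which ties the membrane skeleton of the red cell to the lipid bilayer, and its erythroid first exon is a textbook alternative promoter. The open start on chromosome 8, 60.255 kb downstream of the closed one, had signals of 5.01, 7.02 and 4.24 (mean 5.43 ± 1.43, SD, n = 3), with 2, 6 and 4 footprints within 500 bp. The same gene had a peak in every sample 53 kb downstream of the upstream start, where no start is annotated, with signals of 5.86, 5.78 and 5.59. In the longer list replicate 3 alone had a peak at the closed upstream start, with a signal of 0.505, and Ank1 is not counted with that list.

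Add2 and Dmtn code for the membrane skeleton proteins β-adducin and dematin, which bind actin at the spectrin junctions. At Add2 (chromosome 6) the open start 49.403 kb downstream had signals of 2.70, 3.59 and 1.82 (mean 2.70 ± 0.887, SD, n = 3). At Dmtn (chromosome 14) the open start 8.994 kb downstream had signals of 4.35, 5.28 and 3.44 (mean 4.36 ± 0.918, SD, n = 3). Both genes had a second open site farther downstream in all 3 samples, near 57 kb in Add2 and near 17.8 kb in Dmtn. At the open start of both genes, though not at these second sites, replicate 2 was the highest and replicate 3 the lowest.

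Steap3, the ferrireductase that reduces iron taken up with transferrin, was open 7.421 kb downstream on chromosome 1 with signals of 5.59, 7.82 and 5.54 (mean 6.32 ± 1.30, SD, n = 3). A further start 1.6 kb from its closed upstream start had a weaker peak in replicates 2 and 3, with signals of 1.63 and 1.43, and none in replicate 1. By mean signal the order of the 5 red cell genes was Steap3, Ank1, Dmtn, Add2 and Gata1, and the ranges of each pair of neighbours in that order overlapped. Within each sample the order was the same, except that Add2 and Gata1 were equal at 1.82 in replicate 3.

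**Figure D1:**
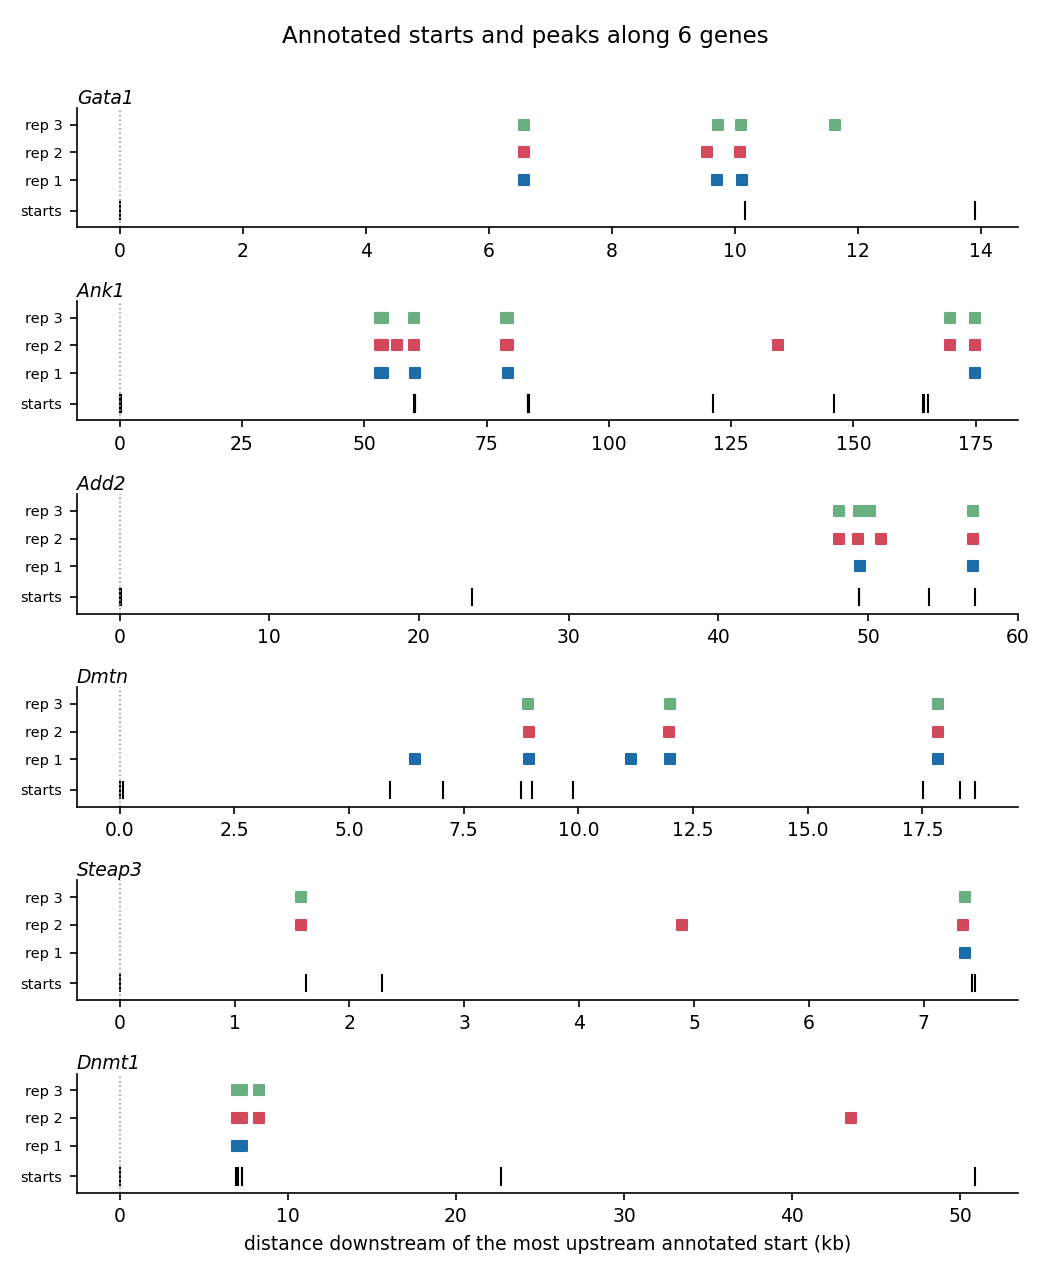
Starts and peaks along Gata1, Ank1, Add2, Dmtn, Steap3 and Dnmt1, with the distance downstream of the most upstream annotated start in kb on the horizontal axis (0 is the dotted line). Black ticks are annotated transcript starts and squares are the centres of peaks of the shorter list in replicates 1, 2 and 3; no square lies at the dotted line, and all 3 replicates have a square at the open start.

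The other genes of the red cell lists show the remaining patterns. The transcription factors Klf3, Lmo2, Ldb1, Nfe2 and Runx1 and the membrane genes Epb41 and Tmcc2 were open at both starts. At Epb41, which codes for protein 4.1, the upstream start had signals of 16.7, 26.2 and 17.0, above those of 2.84, 3.35 and 3.19 at the strongest downstream start in every sample. At Runx1 the strongest downstream start was above the upstream one in every sample, with 3.82, 6.66 and 4.89 against 2.24, 2.46 and 2.02. Gata2, a progenitor factor, and the heme and iron genes Alas2, Fech and Slc11a2 had no peak in the shorter list at their most upstream start or at any start over 5 kb downstream. Closer to the upstream start, Fech, the last enzyme of heme synthesis, had an open start 0.821 kb away with signals of 9.88, 11.9 and 10.4, and Slc11a2, an iron transporter, had one 2.017 kb away with 10.7, 16.7 and 10.7. Gata2 had a peak near a start 4.443 kb away in replicates 2 and 3, and Alas2 had none at any annotated start.

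Of 32 genes known for more than 1 promoter whose starts lie over 5 kb apart, 7 (21.9%) were open only downstream, beside 4.91% of all 9504 genes. The list holds genes picked for their alternative promoters, with earlier results of these data known, so its share is a description only. Of the others, 6 were open at both, 4 at the upstream start only, 7 at neither and 8 differed between samples. Gata1 and Ank1 are on this list too. Dnmt1, the maintenance DNA methyltransferase, has an upstream first exon known from oocytes. Its start 7.043 kb downstream on chromosome 9 had signals of 8.01, 12.6 and 8.53 (mean 9.71 ± 2.51, SD, n = 3) with 9, 12 and 13 footprints. Nr3c1, the glucocorticoid receptor, was open 28.12 kb downstream on chromosome 18 with signals of 8.10, 10.5 and 7.65. That peak lies over 250 bp from the start, and within 250 bp the mean signal of Nr3c1 was 0.505. Gnas, the imprinted gene of the stimulatory G protein α subunit, was open 43.379 kb downstream on chromosome 2 with signals of 2.41, 2.70 and 2.26. Nrg1, the growth factor neuregulin 1, was open 874.538 kb downstream on chromosome 8 with signals of 1.27, 1.51 and 1.33, and is not counted with the longer list. Runx2, the regulator of bone formation, was open 78.621 kb downstream on chromosome 17 with signals of 0.958, 0.510 and 0.829. The 5 genes thus span a range from above to below the median of the whole class, and the ranges of Dnmt1 and Nr3c1 overlap while those of Gnas, Nrg1 and Runx2 do not.

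Over all 466 genes the median signal at the open start was 3.30, 4.02 and 3.14 in replicates 1, 2 and 3 (3.49 ± 0.467, SD, n = 3). The mean over the samples ranged from 0.435 at Ptprd to 20.9 at Prx. Genes open only at their most upstream start had a median of 5.83 there, and the strongest start of all 11151 open genes, 50.8% of the 21938 protein-coding genes compared, had one of 5.59. At genes open at both, the alternative start had a median of 3.03 and the upstream start one of 5.21. In all, 204 of the 466 open starts (43.8%) fell in the lowest 25% of signal of all open genes. These values were used by the rule and are not tested.

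**Figure D2:**
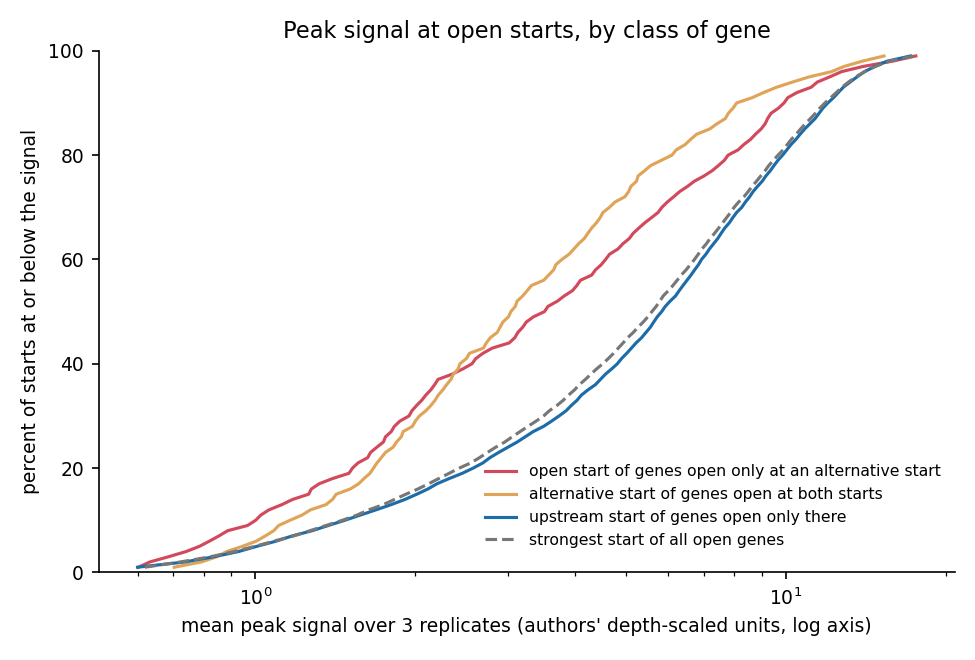
Percent of starts (vertical axis) at or below a given mean peak signal over the 3 replicates (horizontal log axis, authors' depth-scaled units), for percentiles 1 to 99 of 4 classes of start. The curve of the open alternative starts has its middle at 3.51 and lies left of that of the upstream starts of genes open only there, whose middle is at 5.83, and the curves meet at the strongest starts.

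The 12 strongest open starts reached means of 14.9 to 20.9, and replicate 2 was the highest at each. Prx, which codes for the myelin protein periaxin, had signals of 16.8, 30.01 and 16.0 at a start 8.482 kb downstream on chromosome 7, and the peak lay beyond 250 bp from that start, so Prx is lost with a 250 bp window, in which its mean signal was 1.12. Usp37, a deubiquitinase, had 17.1, 28.9 and 15.8, at a start within 1 kb of a start of the neighbouring gene Cnot9. Tbc1d14, a regulator of autophagy, had 15.5, 29.5 and 14.5 and no other gene's start near it. Xrcc6, the Ku70 subunit of DNA end joining, and Desi1, a desumoylating peptidase, run away from each other from a single peak. Its signals were 15.5, 24.2 and 14.9, so the values of the 2 genes are 1 measurement. They were the only 2 members to share their strongest replicate 1 peak.

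Others of the 12 were Tollip (an adaptor of Toll-like receptor signalling, mean 16.7 ± 3.07), Gpx4 (a peroxidase of lipid peroxides, 16.4 ± 5.62), Ndel1 (a dynein regulator, 16.3 ± 3.98), Carns1 (carnosine synthase, 16.0 ± 4.08), Oser1 (15.5 ± 5.13) and Hdac4 (a histone deacetylase, 14.9 ± 5.01), each SD with n = 3. Their replicate ranges overlapped one another. At Prx, Usp37 and Carns1 the principal isoform starts at the closed upstream start and not at the open one. At Carns1 no protein-coding transcript is annotated at the open start.

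At the other end, Ptprd, a receptor phosphatase, had signals of 0.529, 0.385 and 0.392, and Oprm1, the μ-opioid receptor, had 0.592, 0.343 and 0.384. Slc8a1, a sodium-calcium exchanger, had 0.542, 0.310 and 0.512, and Rapgef5, an exchange factor for Rap proteins, had 0.580, 0.377 and 0.565. Replicate 2 was the lowest at each of these 4, the reverse of the strongest starts. Ptprd, Oprm1 and Slc8a1 are best known from nerve or muscle. The footprints of the 4 genes numbered at most 2 in any sample except for 5 at Slc8a1 in replicate 3. All 4 fall out when only the upper 50% of peaks is used. Slc8a1 is also lost with the longer list, and Rapgef5 with a 250 bp window, in which its mean signal fell from 0.507 to 0.373.

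The distance between the closed and the open start had a median of 17.4 kb, with quartiles of 9.25 and 44.3 kb, close to the 22.2 kb of genes open at both. It was under 10 kb in 134 genes (28.8%) and over 100 kb in 52 (11.2%). The longest was 2099.54 kb in Dmd, the dystrophin gene on chromosome X known for several short isoforms from internal promoters, where the open start had signals of 1.08, 0.611 and 0.625. Ptprd followed with 1761.98 kb, Pde4d with 1236.21 kb, Nrg1 with 874.538 kb, Zfhx3 with 772 kb and Celf2 with 636.966 kb. Pde4d, a cAMP phosphodiesterase with many first exons, was the only gene with 4 separate open sites, and the strongest had signals of 2.08, 1.78 and 1.57. All 6 lie in the lowest 25% of signal of all open genes, whose upper bound is 2.95. None of the 6 is counted with the upper 50% of peaks, nor are Pde4d, Nrg1 and Celf2 with the longer list. No protein-coding transcript began at the open start of Celf2. In 423 genes the open starts formed 1 site, in 40 genes 2 and in 2 genes 3, so that 1439 annotated starts came together in 513 sites.

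**Figure D3:**
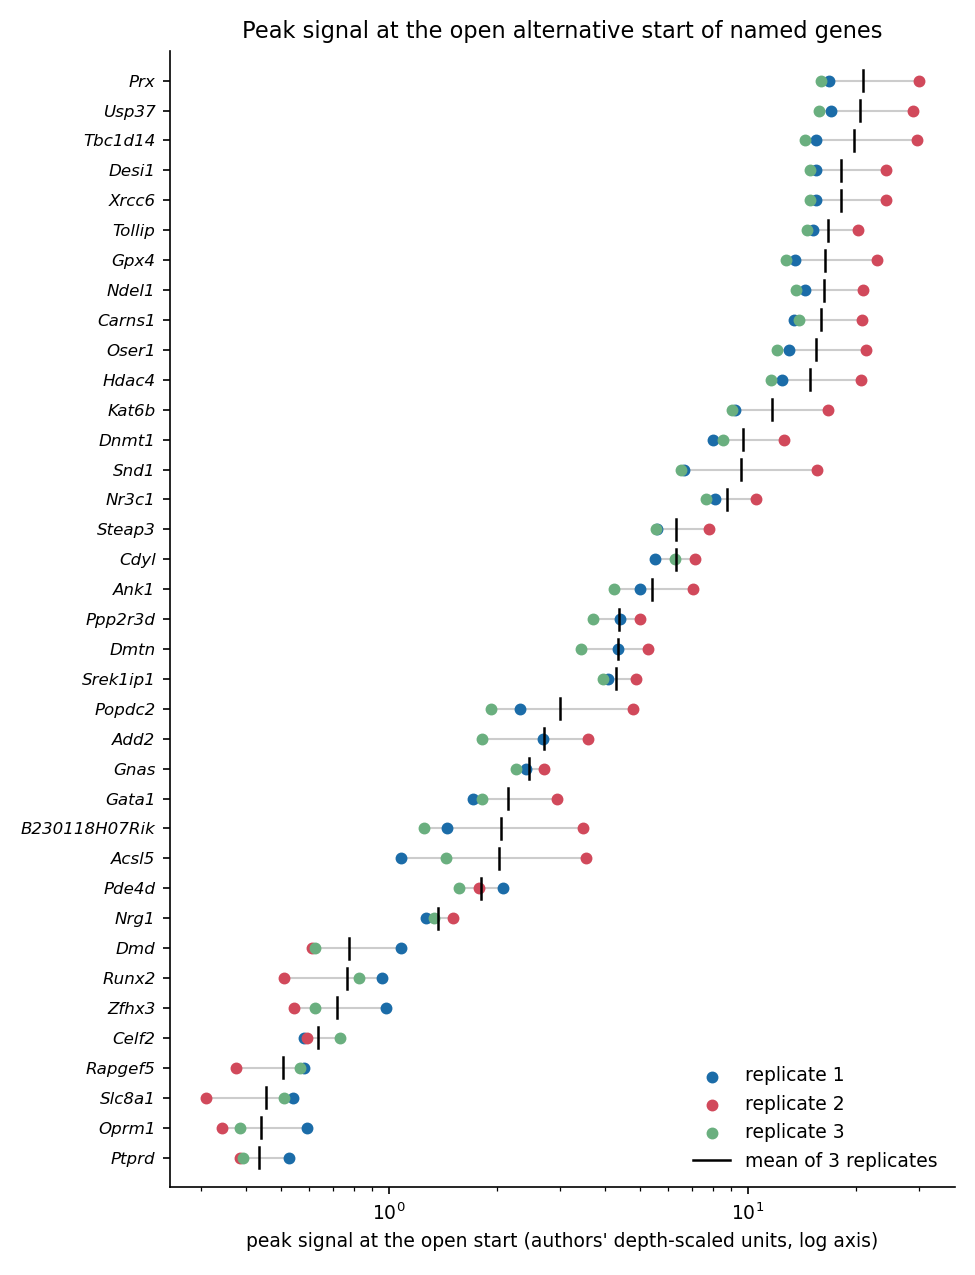
Peak signal at the open alternative start (horizontal log axis, authors' depth-scaled units) of the genes named by rule and reported here, ordered by their mean. Coloured points are replicates 1, 2 and 3 and the black bar is their mean; replicate 2 lies at the right in the stronger genes, such as Prx at 30.01, and at the left in the weakest, such as Slc8a1 at 0.310.

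The spread between samples had a median coefficient of variation of 16.4%, against 18.1% over all open genes. Replicate 2 was the highest in 313 of the 466 genes (67.2%), and among all open genes this was so in 75.1%. The largest coefficients were those of Acsl5, an acyl-CoA synthetase, with 1.08, 3.55 and 1.45 (65.7%), B230118H07Rik with 1.45, 3.47 and 1.25 (59.8%), Snd1, a component of RNA silencing complexes, with 6.64, 15.6 and 6.52 (54.3%), and Popdc2, a cAMP-binding membrane protein, with 2.32, 4.78 and 1.92 (51.5%). At each of the 4 the values of replicates 1 and 3 lay close together and replicate 2 stood apart above them. No protein-coding transcript began at the open start of Acsl5 or Popdc2.

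Footprints were deposited in a separate file, from the same cuts. A footprint lay within 500 bp of the open start in all 3 samples in 456 of 466 genes (97.9%), against 98.6% of the strongest starts of all open genes. The median number was 5, 6 and 6 in replicates 1, 2 and 3, against 6, 7 and 7. Within the lowest 25% of signal the shares were 95.6% of 204 open starts and 95.1% of 2789 starts of all open genes. A single gene, Sardh (0.215%), had no footprint in any sample. The most footprints were found at Kat6b, a histone acetyltransferase, with 17, 18 and 17, at Ppp2r3d, a phosphatase subunit, with 17, 17 and 15, at Srek1ip1 with 13, 18 and 16, and at Cdyl, a chromodomain protein, with 15 in each. Srek1ip1 has a start of the gene Cwc27 within 1 kb.

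**Figure D4:**
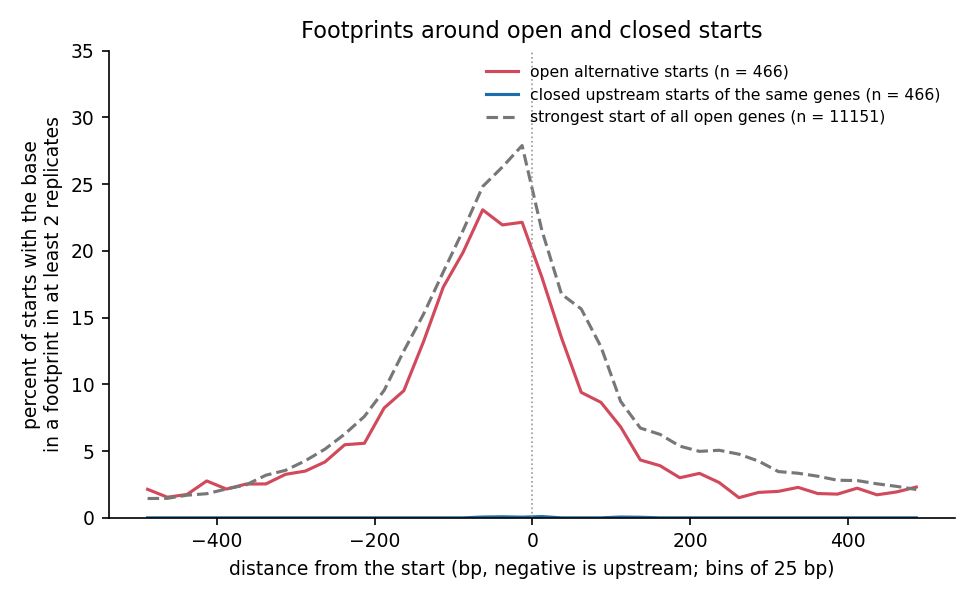
Percent of starts whose bases lie in a footprint in at least 2 replicates (vertical axis) by distance from the start in bins of 25 bp (horizontal axis, negative is upstream), for the 466 open alternative starts, the closed upstream starts of the same genes and the strongest starts of all open genes. The open alternative starts peak at 23.1% between 75 and 51 bp upstream, all open genes at 27.9% in the last 25 bp upstream, and the closed starts stay below 0.1% in every bin.

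The closed upstream starts were also read in the other files, which come from the same cuts as the peaks that chose the genes. In 374 of 466 genes (80.3%) no base within 500 bp passed the authors' false discovery rate of 0.05 in any sample. The longer list had a peak there in at least 1 sample in 73 genes (15.7%) and in all 3 in 8 (1.72%). The same shares at the closed upstream starts of other genes are not given here. Whether these shares are particular to the members therefore cannot be read from them. Short reads cannot be placed in repeated sequence. Under 50% of the 36-base words were unique in the genome at 16 closed starts (3.43%), against 2.24% of the upstream starts of all 9504 genes and 0.375% of those of genes open only there. Leaving these genes out kept 451 members, a count fixed by their number. The part of such sequence in the missing peaks was not tested.

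The starts differed in sequence. The CpG ratio, the observed over the expected number of CpG dinucleotides within 500 bases on either side, had a median of 0.687 at the open starts and 0.249 at the closed upstream starts. It was higher at the open start in 393 of the 466 genes (84.3%). Among genes open at both starts the alternative start had the higher ratio in 27.6%. A ratio over 0.6 was found at 284 open starts (60.9%) and 52 closed upstream starts (11.2%), against 80.4% of the strongest starts of all open genes and 59.2% of the upstream starts of all 9504 genes. Genes open only at the upstream start had a median of 0.774 there, and genes with no peak there or over 5 kb downstream one of 0.257. CpG-rich open starts, over 0.6, had a median signal of 4.99 and the 182 others one of 2.12.

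**Figure D5:**
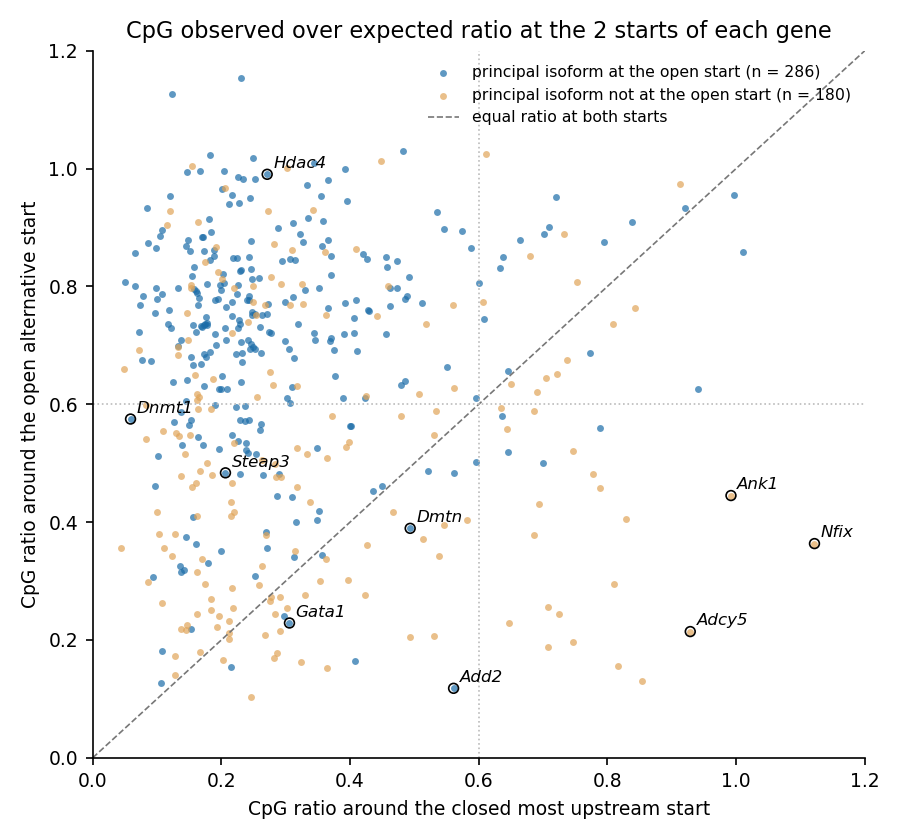
CpG ratio around the closed most upstream start (horizontal axis) and around the open alternative start (vertical axis) of each of the 466 genes, coloured by whether the principal isoform begins at the open start. Most points lie above the dashed line of equal ratios and at the left, while Gata1, Dmtn, Add2, Ank1, Adcy5 and Nfix lie below it; dotted lines mark a ratio of 0.6.

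Of the 5 listed red cell genes, 4 had the lower ratio at the open start. At Ank1 the open start had a CpG ratio of 0.445 and the closed one 0.992, at Add2 0.118 and 0.561, at Dmtn 0.389 and 0.493, and at Gata1 0.229 and 0.306, whereas at Steap3 the open start had the higher ratio, 0.484 against 0.206. Hk1 and Slc14a1, members with known red cell roles that are not on the lists and were chosen after their values were seen, had the higher ratio at the open start, 0.554 against 0.109 and 0.357 against 0.271. In all, 73 of the 466 genes did not have the higher ratio at the open start. Among the 52 genes whose closed upstream start was CpG-rich, 24 had an open start at or below 0.6, 26 had their principal isoform at the closed start, and 28 had no peak there in the longer list in any sample. The most extreme was Nfix, a nuclear factor I transcription factor, with 1.12 at the closed start and 0.364 at the open one, 92.628 kb downstream, where the signals were 2.44, 2.28 and 1.88. Adcy5, an adenylate cyclase, had 0.929 and 0.214, with signals of 1.10, 1.31 and 1.39. Both genes had a longer-list peak at the closed start in all 3 samples, so neither is among the 28. Nfix and Adcy5 were chosen after their values were seen.

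Other motifs differed less uniformly between open and closed starts. GGGCGG, the box known for Sp1 and related factors, was found in the 300-base window at 62.0% of open starts, 19.7% of closed upstream starts, 38.5% of all starts and 66.8% of the strongest starts of all open genes, and at 164 open starts a match was footprinted in all 3 samples. It shares its base composition with CpG-rich DNA, as 75.7% of CpG-rich and 40.7% of CpG-poor open starts held it. CCGGAAG, known for ETS factors, was found at 11.4% of open and 3.65% of closed starts, against 10.4% of all starts and 19.3% of all open genes. AGATAAG, known for GATA factors, was found at 2.58% of open and 4.08% of closed starts, against 2.71% of all starts and 1.66% of all open genes. It was found at 5.49% of the CpG-poor open starts and 0.704% of the CpG-rich ones. TATAAA was found at 5.58% of open and 11.4% of closed starts, against 11.5% of all starts and 6.07% of all open genes. CCAAT was found at 33.0% of open and 34.5% of closed starts, against 34.8% of all starts and 39.7% of all open genes. All were searched on both strands, and a missing match says only that these letters are not in this window.

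By annotation, the open start lay in an exon of a transcript from another start in 62 genes and in no such exon in the remaining 404. Whether a transcript from another start spans the open start in those 404 genes was not checked. A protein-coding transcript began at 382 open starts and at 374 closed ones. The best transcript support level was found at 357 open starts (76.6%) and 207 closed ones (44.4%). In 298 genes the coding transcripts of both starts could be compared. Some coding transcript of each start had the same first coding base in 148 genes, and none did in 150. Thus Gata1, Dnmt1, Add2, Dmtn and Nr3c1 had such a shared base, while Ank1, Gnas, Nrg1, Runx2 and Dmd had none. A shared base does not show that all coding transcripts of the starts begin there, so the protein can still differ between the starts. Another protein-coding gene started within 1 kb of 34 open starts (7.30%), against 22.2% of the strongest starts of all open genes.

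The principal isoform divided the class. It began at the open start alone in 230 genes, whose median signal was 4.73 ± 0.546, and at both starts in 56, with 4.57 ± 0.477 (SD over n = 3 samples). It began at the closed upstream start alone in 111 genes, with 2.19 ± 0.288, and at neither in 69, with 2.03 ± 0.193. In every sample the medians of the first pair of groups were above those of the second. The open start was CpG-rich in 78.3% of the 230 genes and 36.04% of the 111. Only the most upstream start and the open start of each gene were read for this. A principal isoform at a further start of the same gene, open or closed, was not looked for. For comparison, the principal isoform began at the upstream start in 94.1% of the genes open only there.

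Gene families were read from symbols and compared with the 4.91% of all 9504 genes. Symbols that begin with Atp were members in 8 of 49 genes (16.3%), among them the Golgi calcium and manganese pump Atp2c1 with a mean signal of 8.62 and the phospholipid flippases Atp8a2 and Atp8b2 with 0.808 and 1.77. Ubiquitin enzymes and ligases (Usp, Trim, Rnf and Fbxo) were members in 15 of 138 (10.9%), such as Trim28, the corepressor of KRAB zinc finger proteins, with signals of 8.67, 10.7 and 9.17. Regulators of small GTPases were members in 11 of 103 (10.7%), Slc transporters in 10 of 219 (4.57%), Zfp zinc finger genes in 6 of 167 (3.59%) and the listed kinase families in 0 of 60. These shares rest on few genes, and no family was tested.

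The rule's thresholds separated genes that lay a few bases apart. Just inside the limit on closure were Treml4 and Itga6, with the nearest peak of any sample 506 and 520 bp from the upstream start, and just outside were Rpl3 and Tmem120b, with 488 and 475 bp. On the open side Pax5 and Sardh had their farthest peak at 495 and 484 bp and were members, while Tenm4 and Fam19a5, at 527 and 537 bp, were not members. By distance between the starts Dcdc2b and Pmvk, at 5009 and 5030 bp, were inside, and Pef1 and Rhbdf1, at 4998 and 4983 bp, were outside.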

How the data were processed

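The members and all gene, motif and marker lists were chosen with earlier results of these data known. Per the deposited notes, the authors made peaks, footprints and false discovery rates per sample from filtered alignments to mm10. Which aligner, peak caller and footprint caller were used is not given in the sources read here. The signal the authors deposited per peak is its highest cut density scaled to depth, with values below 2 in whole steps of 0.0126, 0.00837 and 0.00753 in replicates 1, 2 and 3. The read depth is unknown. The deposited false discovery rates are a p-value type of measure, and the deposited footprints all carry a q-value threshold of 0.01.

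Python 3 scripts (numpy) matched the peaks to GENCODE M21 starts and counted CpG and motif letters in RefSeq GRCm38.p6. On simulated peaks the selection recovered 200 of 200 planted genes with 0 wrong calls. Those peaks lay inside the window, at genes away from the starts of others, so this checks only that the code follows the rule. Means are given with the SD over 3 samples. No test was run, since there is 1 group. The genes named are the listed members, the 12 strongest, the 4 weakest, the 6 longest, the 4 most variable, the 4 with most footprints, and those at the thresholds, except for genes that are not reported here. Alternatives were the peak list, window, distance, transcript set, peak strength, neighbouring genes and replicates.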

Additional observations from a re-analysis of the deposited data

Results flagged for a closer look

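Both results below come from files that the choice of genes did not read, the longer peak list and the footprints, at upstream starts that the shorter list leaves closed. They are made from the same cuts as the shorter list and are not independent of it. No count over the closed upstream starts of other genes is given beside them.

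In 8 genes the longer list had a peak at the closed upstream start in all 3 samples, among them Adcy5, Asap2, Ccdc120, Ccnd3, Limch1, Nfix and Plcb3. Ccnd3, the cyclin D3 gene, had the highest values there, 1.499, 1.03 and 1.32 in replicates 1, 2 and 3, against 8.86, 8.89 and 7.04 at its open start. At Limch1 the values upstream were 0.517, 0.301 and 0.362, below those of 0.680, 0.586 and 0.768 at the open start in every sample. The values at the open starts are those of the shorter list.

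In 3 genes, Ccnd3, Nfix and Plcb3, a deposited footprint also lay within 500 bp of the closed upstream start in all 3 samples. The numbers were 2, 1 and 2 at Ccnd3, 1, 3 and 4 at Nfix and 1, 1 and 5 at Plcb3. Plcb3 also had an open start within 5 kb in at least 1 sample.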

How the results depend on the processing

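The count of 467 genes ranged from 203 to 626 over 15 alternatives. It stayed within 1.5 times in 14 of them and fell to 203 (of 2694 genes) with basic transcripts only, which tests fewer genes. A like count does not mean the same genes: 394 of the 467 were kept among 492 with the longer list, 304 among 373 with the upper 50% of peaks and 319 among 326 with protein-coding transcripts. Leaving out 1 replicate gave 497 to 568, which include all 467 by construction. The median signal of 3.49 became 2.67 with the longer list, 2.99 beyond 10 kb and 5.22 with the upper 50% of peaks, and 2.56 to 3.45 without 1 replicate (2.56 without replicate 1). The footprint share of 97.9% became 90.4% with the longer list, 98.3% with 250 bp, 88.1% with 1000 bp, 97.4% beyond 2 kb and beyond 10 kb, 98.2% with protein-coding and 97.5% with basic transcripts, 99.2% with the upper 50%, 98.6% without genes open near the upstream start, 95.5% within the peak and 95.8% to 97.8% without 1 replicate. The CpG share of 84.3% became 80.2% beyond 10 kb, 88.9% with protein-coding transcripts and 80.2% to 82.9% without 1 replicate. Except where fewer genes or peaks enter, the cause was not tested. Of 38 genes named by rule 7 were kept under every alternative, and 3 of 228 alternative signal values moved by at least the SD. The 228 values include means without 1 replicate. Leaving out 1 of 3 values always shifts their mean by less than their SD, so those means could not count as moved.

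No paired analysis was possible because there is only 1 group. Depth limits what closed means, since a start without a peak is not a start without cuts, and replicate 1 had the fewest peaks.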

Other observations

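Further members not described above, chosen after their values were seen, include genes of blood and signalling. Hk1, hexokinase 1, whose red cell form is known to come from its own first exon, had 3 separate open sites. The strongest lay 39.366 kb downstream of the closed start on chromosome 10 with signals of 10.7, 13.1 and 10.3, and its principal isoform begins at the closed start. Lck, the T cell kinase with a known distal and proximal promoter, was open 17.182 kb downstream on chromosome 4 with 5.27, 5.66 and 5.18, a spread of 0.252 (SD, n = 3) about a mean of 5.37. No protein-coding transcript of Lck began at that start, and its principal isoform began at the closed one. Notch4, a receptor known from endothelium, was open 22.773 kb downstream on chromosome 17 with 9.35, 12.8 and 9.43, at a start without a protein-coding transcript. Tpm3, a tropomyosin, was open 6.891 kb downstream on chromosome 3 with 5.82, 11.2 and 5.92. Chromosome X held 20 of the 466 genes. The share of this chromosome among all genes with starts over 5 kb apart is not given beside this count.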
